A study of Mus musculus with 7 samples.

Results

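The collagen chain genes encode the polypeptide chains of the collagens, and 36 of the 12393 genes measured in the mouse soleus belonged to them. The members were found by symbol: every probe set with exactly 1 gene symbol in the platform annotation, where that symbol was Col, a number, a and a number. These were 58 probe sets, and the 19 genes with several were each represented by their brightest probe set, by its mean log2 value over the arrays. Total RNA of the soleus, a slow postural muscle of the hindlimb, was hybridised to 7 one-colour Affymetrix arrays. Of these, 4 came from mice labelled as Yin Yang 1 (YY1) knockout and 3 from wild type mice. Both genotypes were taken at an age of 6 months on a mixed background of C57Bl/6 and 129, and no treatment is named for either. The sources used here give neither the part of Yy1 that was removed nor the cells in which it was removed, which limits what the knockout stands for. No label ties an array to an animal of its own, and p-values therefore reflect only the spread between these samples, which may be technical.

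Collagens are secreted proteins built of 3 chains wound into a triple helix. Fibrillar collagens assemble into the fibrils that carry tension in tendon and in the connective tissue sheaths of muscle. Type IV collagen forms the network of basement membranes around muscle fibres, vessels and nerves, and type VI collagen forms beaded microfibrils between the basement membrane and the fibrils. In muscle, most collagen chains are made by fibroblasts of the sheaths, while endothelial cells, pericytes, Schwann cells and muscle fibres add basement membrane chains. YY1 is a zinc finger transcription factor that can activate or repress its target genes.

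The deposited values were intensities, and they were compared as log2(intensity + 1). Array medians of intensity lay between 139.1 and 143.2, and correlations between arrays over the gene table were 0.995 to 0.997 within a genotype and 0.977 to 0.987 between genotypes. Yy1, the targeted gene, had levels of 8.39, 8.24, 8.48 and 8.29 in the knockout arrays, against 9.32, 9.20 and 9.62 in the wild type arrays. Its intensity in knockout soleus was 49.2% of that in wild type (log2 fold change -1.02, standard error, SE, 0.10, adjusted p = 0.000213, limma), and whether its probes lie in the removed part is not known here. The muscle genes Acta1, the skeletal alpha-actin, and Tnnt1, the slow troponin T, which mark the tissue, were bright in every array, at levels of 15.61 to 15.63 and 15.44 to 15.52 in knockout, against 15.57 to 15.58 and 15.18 to 15.35 in wild type.

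Of the 36 collagen genes, 11 were higher and 4 were lower in knockout than in wild type soleus at an adjusted p under 0.05 (limma, Benjamini-Hochberg over all genes), and 21 did not pass. Passing this threshold is the call of a gene. The difference between genotypes was broad: 32.9% of all genes passed, 17% higher and 16% lower. The 15 collagens that passed were 41.7% of the members, with 30.6% higher and 11.1% lower. The median log2 fold change was 0.13 over the collagens and 0.01 over all genes. Values did not overlap between the genotypes for 12 collagens above and 4 below wild type, where this held for 39.5% of all genes, 20.5% above and 19.1% below. The counts were 7 higher without wild type array 2, and 1 lower without wild type array 2 or 3 and 2 lower without wild type array 1 or knockout array 4.

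Bright genes passed more often than dim ones. Among the 13 collagens above the median level of all genes, 7 were higher and 2 lower, with a median log2 fold change of 0.58, while 24.1% and 23.7% of all genes above that level were higher and lower. Among the 23 collagens at or below it, 4 were higher and 2 lower, with a median of 0.09, while 9.88% and 8.20% of all such genes were higher and lower. The classes differed in size and in their counts. Of 9 fibrillar chains 5 were higher (55.6%) and 1 was lower, and of 16 other chains 5 were higher (31.25%) and 1 was lower. Of 8 basement membrane chains 1 was higher and 2 were lower. Those 2 were 25% of the class, where 16% of all genes were lower, or 23.7% of those above the median level. None of the 3 microfibril chains passed.

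**Figure D1:**
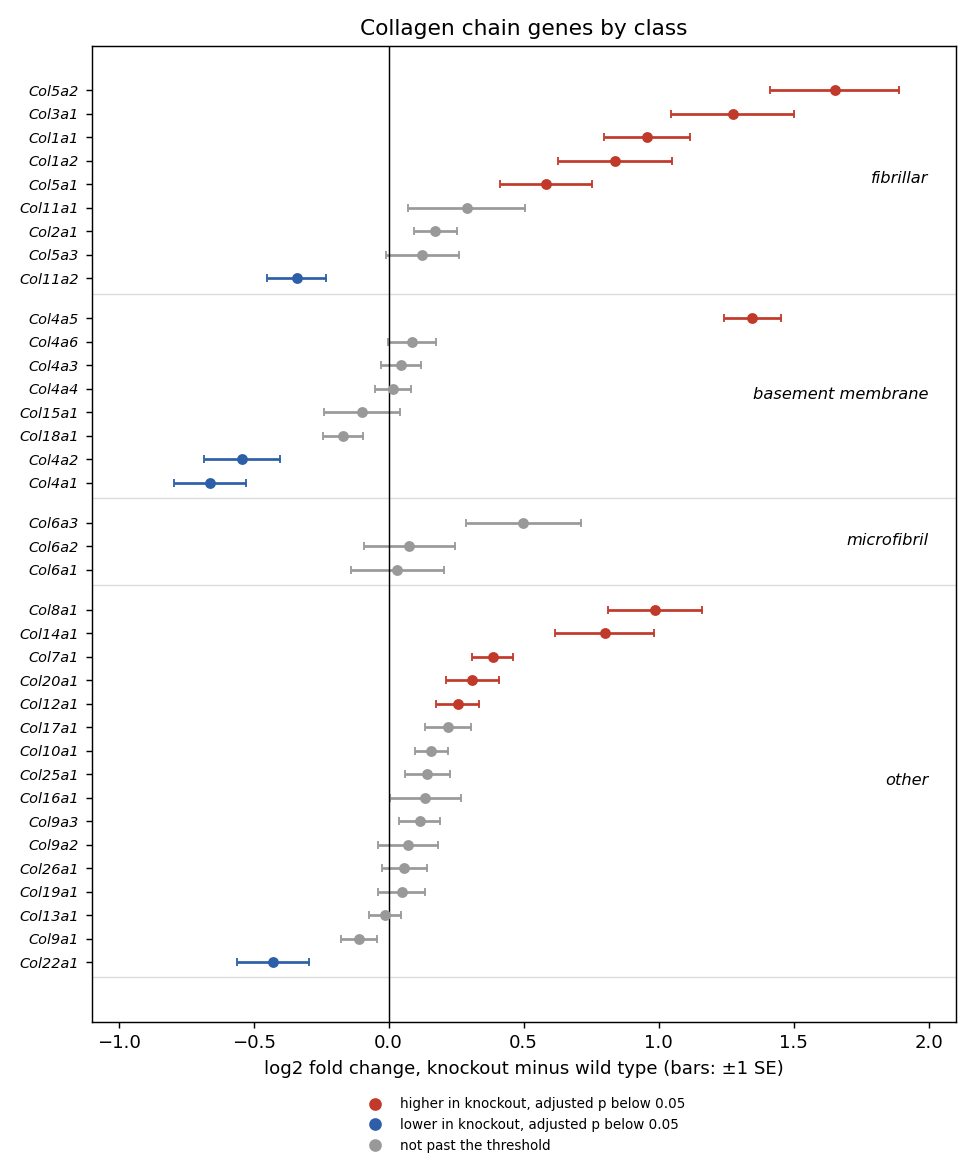
Log2 fold changes of the 36 collagen genes, knockout minus wild type, with bars of 1 SE from the limma fit, grouped by class. Red points are the 11 genes higher in knockout, blue points the 4 genes lower, and grey points the 21 genes that did not pass; Col5a2 and Col4a5 stand farthest to the right, at 1.65 and 1.35.

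Most chains of the main muscle fibrils, types I, III and V, rose in knockout soleus. Of the 6 measured chains of these types, Col1a1, Col1a2, Col3a1, Col5a1 and Col5a2 passed the test at 1.497 to 3.14 times wild type, and Col5a3 did not pass. For each of the 5 the lowest knockout array lay above the highest wild type array. Over the whole fibrillar class of 9 measured genes, 5 were higher, 1 was lower and 3 did not pass, with a median log2 fold change of 0.58.

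Col3a1 makes the only chain of type III collagen, the fine fibrils around and between muscle fibres. Its level was 12.36, 12.87, 13.39 and 12.38 in the knockout arrays, against 11.41, 11.49 and 11.53 in the wild type arrays. As intensities these are 5239, 7492, 10704 and 5334 in knockout, against 2719, 2869 and 2946 in wild type. Every knockout array was above every wild type array, and knockout array 3 stood highest. The log2 fold change was 1.27 (SE 0.23, adjusted p = 0.0031), or 2.42 times wild type.

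Col5a2 makes a chain of type V collagen, which starts the assembly of type I fibrils and sets their diameter. It had the largest log2 fold change of the 36 collagens. The level was 10.11, 11.04, 11.25 and 10.56 in knockout arrays, against 9.15, 9.005 and 9.11 in wild type arrays, with no overlap. The means were 10.74 ± 0.51 in knockout (SD, n = 4) and 9.09 ± 0.07 in wild type (SD, n = 3), a log2 fold change of 1.65 (adjusted p = 0.00107 by limma, SE 0.24) and 3.14 times wild type. Col5a1, its usual partner chain, had a smaller log2 fold change and levels of 8.67, 8.96, 9.37 and 8.67 in knockout, against 8.20, 8.30 and 8.50 in wild type. Its lowest knockout value was 8.67 and its highest wild type value 8.50, and the log2 fold change was 0.58 (SE 0.17, adjusted p = 0.0295). Its call was lost without knockout array 2 (adjusted p = 0.0722), wild type array 1 (0.106) or wild type array 2 (0.0932).

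Type I collagen, the main protein of tendon and of muscle sheaths, is made of the chains of Col1a1 and Col1a2. Col1a1 had levels of 9.28, 9.38, 9.96 and 9.27 in knockout arrays, against 8.54, 8.43 and 8.58 in wild type arrays. Knockout array 3 lay apart above the other knockout arrays, and all 4 were above wild type. Its log2 fold change was 0.96 (SE 0.16, adjusted p = 0.00217). Without knockout array 3 the log2 fold change of Col1a1 was 0.79, with an adjusted p of 0.000457. Col1a2 had levels of 11.83, 12.37, 12.71 and 11.77 in knockout, against 11.28, 11.30 and 11.42 in wild type. These too did not overlap, and the log2 fold change was 0.84 (SE 0.21, adjusted p = 0.0162), although leaving out wild type array 1 or 2 raised the adjusted p to 0.0578 or 0.0598.

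Of the other fibrillar chains, Col11a1, Col11a2 and Col2a1, which are known from cartilage, lay below the median level of all genes, and Col5a3 lay above it. Col11a2, a chain of type XI collagen, which lies inside cartilage fibrils, was the only fibrillar gene that fell. It had levels of 5.27, 5.67, 5.66 and 5.42 in knockout, against 5.83, 5.96 and 5.74 in wild type, with no overlap and a log2 fold change of -0.34 (adjusted p = 0.0411, SE 0.11). The call of Col11a2 was lost without knockout array 1 (adjusted p = 0.0652) or 4 (0.0954), or without wild type array 1 (0.0963), 2 (0.147) or 3 (0.0616). Col11a1, its partner in cartilage, had a log2 fold change of 0.29 (adjusted p = 0.351, SE 0.22). Col2a1, the main cartilage fibril chain, had 0.17 (SE 0.08, adjusted p = 0.134), and Col5a3, another type V chain, had 0.12 (SE 0.13, adjusted p = 0.518); neither passed. Cartilage and bone markers had summed intensities of 445 to 540 in knockout and 352 to 431 in wild type over 6 genes. Of these 6, only Sox9 passed, and it was higher. The log2 fold changes of 4 were negative, with a median of -0.06 over the list.

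The bases just upstream of 4 genes that rose, Col3a1, Col1a2, Col8a1 and Col4a5, are shown as examples of the genes that rose from the fibrillar, other and basement membrane classes. The sequences are from RefSeq on the GRCm38.p6 mouse assembly, on the gene's strand, 5′ to 3′, and end at the base before the annotated start, with the Col4a5 window shortened by 49 bases where the gene's annotation begins earlier. Capitals mark exact matches, on either strand, to TATAAA (the TATA box), CCAAT (the CCAAT box, bound by NF-Y) and GGGCGG (a GC box, bound by SP1), which are core motifs of promoters, and to CCATNTT, the core of YY1 sites.
Col3a1, chr1:45311288-45311537, plus strand: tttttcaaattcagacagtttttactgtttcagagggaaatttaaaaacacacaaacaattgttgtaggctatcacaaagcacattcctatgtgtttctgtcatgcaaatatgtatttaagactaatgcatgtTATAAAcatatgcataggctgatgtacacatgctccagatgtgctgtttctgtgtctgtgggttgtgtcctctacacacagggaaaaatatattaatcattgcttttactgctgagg
Col1a2, chr6:4505368-4505617, plus strand: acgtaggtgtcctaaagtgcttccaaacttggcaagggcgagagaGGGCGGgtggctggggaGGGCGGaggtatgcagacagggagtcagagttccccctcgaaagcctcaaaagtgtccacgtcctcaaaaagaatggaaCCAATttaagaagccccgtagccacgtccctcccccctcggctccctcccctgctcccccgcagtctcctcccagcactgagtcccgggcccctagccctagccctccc
Col8a1, chr16:57754738-57754987, minus strand: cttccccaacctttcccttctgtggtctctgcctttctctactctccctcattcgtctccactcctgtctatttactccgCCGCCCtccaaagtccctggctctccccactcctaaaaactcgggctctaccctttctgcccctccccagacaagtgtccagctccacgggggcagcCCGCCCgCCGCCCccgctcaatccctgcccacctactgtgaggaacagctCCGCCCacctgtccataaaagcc
Col4a5, chrX:141475169-141475369, plus strand: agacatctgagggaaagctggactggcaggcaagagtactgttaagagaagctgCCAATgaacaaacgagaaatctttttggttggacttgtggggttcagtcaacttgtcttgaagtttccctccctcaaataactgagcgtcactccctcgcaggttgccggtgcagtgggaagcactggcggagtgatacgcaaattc
Col3a1 held 1 TATAAA, Col1a2 held 1 CCAAT and 2 GGGCGG, Col8a1 held 4 GC boxes written CCGCCC, the other strand of GGGCGG, and Col4a5 held 1 CCAAT. No match overlapped another in these windows, and the full 250 bases of Col4a5 held 1 GC box as well. Promoter windows were matched for 27 of the 36 genes, with 30 windows in all. TATAAA stood in 5 of those 30 (16.7%), against 12.4% of the 32851 windows of all genes. CCAAT stood in 12 (40%, against 33.8%), and GGGCGG in 16 (53.3%, against 32.7%). The YY1 core stood in 2 windows (6.67%, against 12.4%), both of Col18a1, a gene that did not pass. Each of these is a description of letters in 250 bases upstream, and a missing match says only that the letters are not in that window.

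Basement membrane chains differed in direction. Of the 8 measured, 1 was higher (12.5%), 2 were lower (25%) and 5 did not pass, with a median log2 fold change of -0.04. Of all genes, 17% were higher and 16% lower, or 24.1% and 23.7% of those above the median level, so these counts lie near those shares. Of the 6 chains of type IV collagen, Col4a5 rose and Col4a1 and Col4a2 fell. The 5 that did not pass were Col4a3, Col4a4, Col4a6, Col15a1 and Col18a1.

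Col4a1 and Col4a2 form the type IV network that nearly every basement membrane holds. Col4a1 had levels of 9.65, 9.73, 10.05 and 9.49 in knockout arrays, against 10.21, 10.57 and 10.40 in wild type arrays. The highest knockout array, at 10.05, lay below the lowest wild type array, at 10.21, and the log2 fold change was -0.66 (SE 0.13, adjusted p = 0.00585), which is 63.2% of wild type. Col4a2 had levels of 9.56, 9.88, 9.95 and 9.40 in knockout, against 10.12, 10.19 and 10.41 in wild type, with no overlap and a log2 fold change of -0.54 (adjusted p = 0.0183, SE 0.14), or 68.7% of wild type. The call of Col4a2 was lost without wild type array 2 (adjusted p = 0.0516) or 3 (0.079), while that of Col4a1 was not.

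Col4a5 makes a type IV chain that joins the chains of Col4a3 and Col4a4, or that of Col4a6, in some basement membranes. It had levels of 7.95, 7.60, 7.72 and 7.60 in knockout arrays, against 6.55, 6.26 and 6.30 in wild type arrays. All knockout arrays lay more than 1 log2 unit above all wild type arrays, with means of 7.72 ± 0.17 in knockout (SD, n = 4) and 6.37 ± 0.16 in wild type (SD, n = 3). The log2 fold change was 1.35 (SE 0.11, adjusted p = 7.87e-05 by limma), or 2.55 times wild type, and its highest value was in knockout array 1. Its partner chains were dim and did not pass: Col4a6 had a log2 fold change of 0.09, Col4a3 of 0.05 and Col4a4 of 0.02.

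Col15a1 and Col18a1 make collagens of basement membrane borders, and Col18a1 is the source of endostatin, a fragment that restrains vessel growth. Col15a1 had levels of 7.22, 7.14, 7.42 and 6.74 in knockout, against 7.22, 7.27 and 7.20 in wild type, with a log2 fold change of -0.10 (adjusted p = 0.625, SE 0.14). Col18a1 had levels of 6.99, 7.06, 7.06 and 6.87 in knockout, against 7.16, 7.06 and 7.27 in wild type, with a log2 fold change of -0.17 (adjusted p = 0.117, SE 0.07). In both genes the genotypes overlapped.

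**Figure D2:**
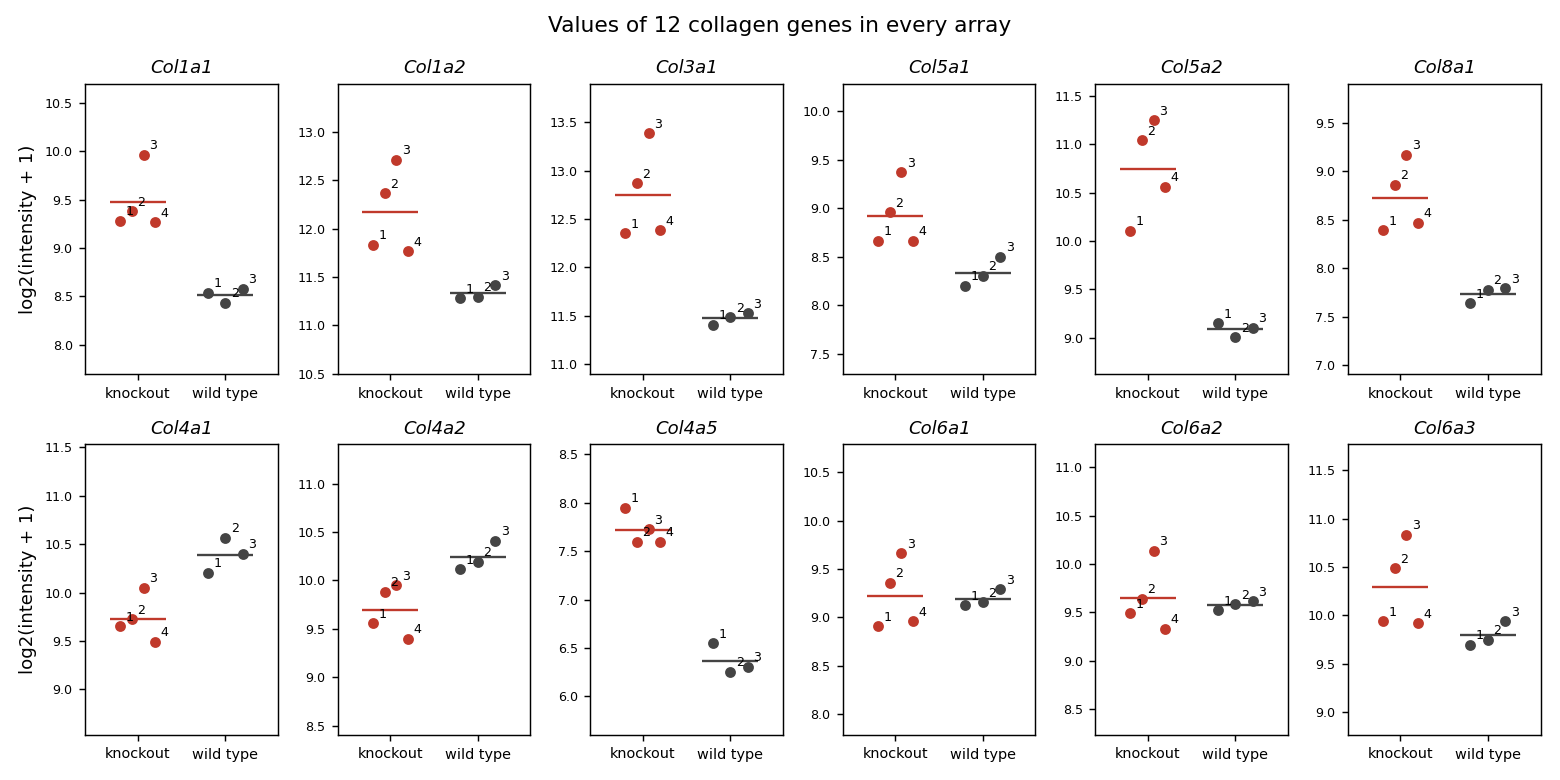
Levels of 12 collagen genes as log2(intensity + 1), with knockout arrays (red, numbered 1 to 4) left of wild type arrays (grey, numbered 1 to 3), lines at the group means, and a y axis of the same height in each panel that does not start at 0. The 5 fibrillar genes, Col8a1 and Col4a5 lie above wild type in every knockout array, Col4a1 and Col4a2 lie below it, and the type VI genes overlap.

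Of the type VI chains, Col6a1, Col6a2 and Col6a3 were measured, and 0 of 3 passed the limma test, with 1 at an unadjusted p under 0.05. In human patients, loss of these chains causes muscle disease. Col6a1 had levels of 8.91, 9.36, 9.67 and 8.96 in knockout arrays, against 9.12, 9.16 and 9.29 in wild type arrays, a log2 fold change of 0.03 (adjusted p = 0.905, SE 0.17). Col6a2 had 9.49, 9.64, 10.14 and 9.33 in knockout, against 9.52, 9.58 and 9.62 in wild type, a log2 fold change of 0.08 (adjusted p = 0.754, SE 0.17). In both, knockout arrays 2 and 3 were above the wild type range and knockout arrays 1 and 4 were below it. Col6a3 had 9.94, 10.49, 10.83 and 9.92 in knockout, against 9.70, 9.75 and 9.94 in wild type. Its log2 fold change of 0.50 (SE 0.21) did not pass (adjusted p = 0.111), and knockout arrays 2 and 3 lay above the highest wild type array while knockout arrays 1 and 4 lay at about its level.

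The remaining 16 collagens include network, fibril surface and membrane-spanning chains, and some of none of these kinds. Of the 16, 5 were higher, 1 was lower and 10 did not pass, with a median log2 fold change of 0.14. Col8a1, a short chain of the networks beneath vessel linings, led them. It had levels of 8.39, 8.86, 9.17 and 8.47 in knockout arrays, against 7.64, 7.78 and 7.79 in wild type arrays, with no overlap. The log2 fold change was 0.99 (SE 0.18, adjusted p = 0.00297), or 1.98 times wild type.

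Collagens of types XII and XIV sit on the surface of type I fibrils, and both genes measured rose. Col14a1 had levels of 7.71, 8.34, 8.41 and 7.84 in knockout, against 7.37, 7.05 and 7.39 in wild type, with no overlap and a log2 fold change of 0.80 (adjusted p = 0.0102, SE 0.18). Col12a1 had levels of 6.94, 7.10, 7.23 and 6.97 in knockout, against 6.83, 6.75 and 6.83 in wild type, with no overlap and a log2 fold change of 0.26 (adjusted p = 0.038, SE 0.08). The call of Col12a1 was lost without knockout array 2 (adjusted p = 0.0875) or 3 (0.0591), or without wild type array 1 (0.0782), 2 (0.124) or 3 (0.0832). Col7a1, the chain of anchoring fibrils beneath epithelia, had 7.12, 7.28, 7.18 and 7.12 in knockout, against 6.69, 6.94 and 6.74 in wild type. The 4 knockout values of Col7a1 lay above all wild type values, and the log2 fold change was 0.39 (SE 0.08, adjusted p = 0.00509).

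Col20a1, a chain related to types XII and XIV, and Col22a1, a chain of the junctions between muscle and tendon, passed the test although their genotypes overlapped. Col20a1 had 7.76, 7.95, 7.65 and 7.72 in knockout, against 7.65, 7.36 and 7.36 in wild type, a log2 fold change of 0.31 (adjusted p = 0.0396, SE 0.10). Col22a1 had 7.51, 6.99, 6.97 and 6.98 in knockout, against 7.60, 7.46 and 7.56 in wild type, a log2 fold change of -0.43 (adjusted p = 0.0383, SE 0.13). In Col22a1, knockout array 1 lay within the wild type range and the other 3 knockout arrays lay below it. The call of Col20a1 was lost without knockout array 1 (adjusted p = 0.0673), 2 (0.086) or 4 (0.064), or without wild type array 2 (0.139) or 3 (0.139). That of Col22a1 was lost without any 1 array (adjusted p = 0.0761 to 0.116) except knockout array 1, without which it was -0.56 with an adjusted p of 0.000426.

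The 10 that did not pass had log2 fold changes between -0.11 and 0.22. Among them were chains of cartilage (Col9a1, Col9a2, Col9a3 and Col10a1), membrane-spanning chains (Col13a1, which stands at the neuromuscular junction, Col17a1 and Col25a1), the fibril surface chains Col16a1 and Col19a1, and Col26a1. Col17a1 and Col10a1 lay above wild type in every knockout array, at 0.22 and 0.16, with adjusted p of 0.0841 and 0.0848, and Col9a1 lay below it in every knockout array, at -0.11 with an adjusted p of 0.252. Col13a1 had the smallest log2 fold change, -0.01 (adjusted p = 0.886).

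**Figure D3:**
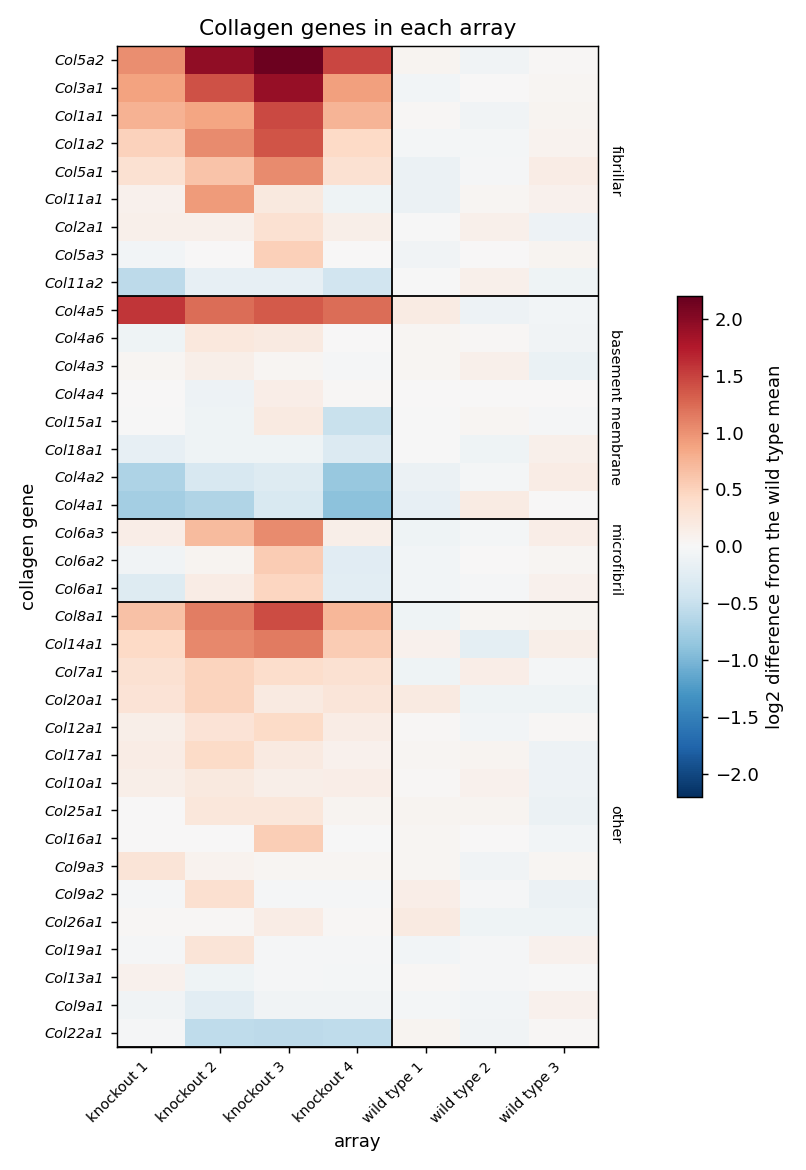
Difference of each array's log2 level from the wild type mean of the gene, for the 36 collagen genes (rows, by class) and the 4 knockout and 3 wild type arrays (columns). Red is above and blue below the wild type mean, and knockout array 3 was highest of the 4 knockout arrays in 19 genes, 7 of them fibrillar.

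The knockout arrays differed among themselves in the collagens more than the wild type arrays did. The SD was larger in knockout than in wild type for 29 of 36 collagens, where this held for 60.2% of all genes, and for 13 of the 13 collagens above the median level, where this held for 68.1% of all such genes. At those 13, the median SD was 0.35 in knockout and 0.09 in wild type on the log2 scale. Over the 9 fibrillar genes, the median difference from the wild type mean was 0.33, 0.87, 1.04 and 0.33 log2 units in knockout arrays 1 to 4. Knockout array 3 was the highest knockout array in 19 of 36 collagens and knockout array 4 in 0, where these arrays were highest in 26.6% and 18.6% of all genes. Knockout array 3 also led in 8 of the 11 collagens that were higher, but in 25.3% of all genes that were higher. Without knockout array 3, 10 collagens were higher and 3 lower, and the log2 fold change of Col3a1 was 1.06 and that of Col5a2 1.48.

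Several collagen genes lie side by side in the genome, with 0 protein-coding genes between them in the RefSeq table. Col3a1 and Col5a2, neighbours on chromosome 1, both rose, at 1.27 and 1.65. Col4a1 and Col4a2, neighbours on chromosome 8 whose start sites lie 21 bases apart on opposite strands, both fell, at -0.66 and -0.54. Col4a5 and Col4a6 lie on opposite strands of chromosome X, with start sites 1343 bases apart by the full promoter windows. The annotation of Col4a5, used to shorten its window above, begins 49 bases nearer to Col4a6. These 2 genes had unlike values, a difference that was not tested: Col4a5 rose by 1.35, while Col4a6 had 0.09 and did not pass. Both members of the pairs Col6a1 and Col6a2 (chromosome 10), Col4a3 and Col4a4, and Col9a1 and Col19a1 (both chromosome 1) did not pass.

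Second probe sets of the genes mostly gave the same direction. There were 13 other probe sets for 11 of the collagens that passed. Of these, 12 had the same sign and 7 passed in the same direction in a fit of every probe set, in which 29.4% of all probe sets passed, while 5 of the 13 differed in sign or were under 50% of the gene's value. The second probe sets of Col3a1, Col5a2 and Col1a2 had log2 fold changes of 1.63, 1.596 and 1.07, and those of Col4a1 and Col4a5 had -0.57 and 0.77. The second probe set of Col1a1 had 0.47 and did not pass (adjusted p = 0.118), and that of Col8a1, which was dim, had 0.11 (adjusted p = 0.323). A dim set of Col5a1 had 0.23 (adjusted p = 0.19) and another had 0.63, and the second set of Col22a1 had -0.16 (adjusted p = 0.206). Col20a1 had others at 0.47 and -0.10, so its probe sets disagreed. Of the collagens that did not pass, Col19a1 and Col5a3 each had another probe set that did, at 0.38 and 0.23.

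Genes that handle collagen were described from 5 lists, set beside the 17% of genes higher and 16% lower. Many of them lay above the median level, where 24.1% of all genes were higher and 23.7% lower. Chains are hydroxylated, folded and glycosylated in the endoplasmic reticulum, and of 15 such genes measured, 5 were higher and 1 was lower, with a median log2 fold change of 0.06. Plod2, the lysyl hydroxylase that prepares cross-links, had a log2 fold change of 1.09 (adjusted p = 0.000186, SE 0.11), Plod3 of 0.38 (adjusted p = 0.00352) and P3h4 of 0.46 (adjusted p = 0.00553). P4ha2, a prolyl hydroxylase subunit that stabilises the helix, fell, at -0.63 (SE 0.10, adjusted p = 0.00195). Of 9 genes that cut procollagen or cross-link fibrils, 3 were higher and 0 lower, with a median of 0.31. Lox, the enzyme that starts cross-linking, had levels of 8.46, 9.20, 9.43 and 9.03 in knockout arrays, against 7.73, 7.64 and 7.83 in wild type arrays. The groups did not overlap, and its log2 fold change was 1.297 (SE 0.20, adjusted p = 0.00139). Loxl1 and Loxl3, related enzymes, rose by 0.87 and 0.41, the second not passing without wild type array 1 (adjusted p = 0.069).

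Among 14 proteins that bind fibrils and shape their assembly, 8 were higher and 1 lower, with a median of 0.47. Postn (periostin) had the largest change of the lists, with levels of 10.68, 11.85, 11.71 and 11.47 in knockout arrays, against 8.46, 7.996 and 8.30 in wild type arrays. Its log2 fold change was 3.18 (SE 0.26, adjusted p = 8.94e-05), or 9.03 times wild type. Aspn (asporin) rose by 2.15 (SE 0.26, adjusted p = 0.000458) and Comp, a cartilage and tendon matrix protein, by 1.75 (SE 0.15, adjusted p = 0.000117). Kera (keratocan) fell, at -0.75 (SE 0.20, adjusted p = 0.0197), with overlapping groups, and did not pass when knockout array 2, 3 or 4 or wild type array 1 or 2 was left out (adjusted p = 0.0513 to 0.0727). Receptors and uptake genes had 4 of 7 higher and 0 lower, with a median of 0.22, among them Cd44 (2.01, adjusted p = 0.000101), Itgb1, the shared beta chain of collagen-binding integrins (0.41, adjusted p = 0.0107), and Mrc2, which takes up cleaved collagen (0.53, adjusted p = 0.0267). Of 11 proteases that cut collagen, 5 were higher and 0 lower, with a median of 0.19, and Ctsk, Mmp14 and Fap had log2 fold changes of 1.06, 0.58 and 0.54 (adjusted p = 0.00314, 0.00474 and 0.013). Without wild type array 1 or 2, Mrc2 (adjusted p = 0.0668 and 0.106) and Fap (0.0564 and 0.0534) did not pass.

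**Figure D4:**
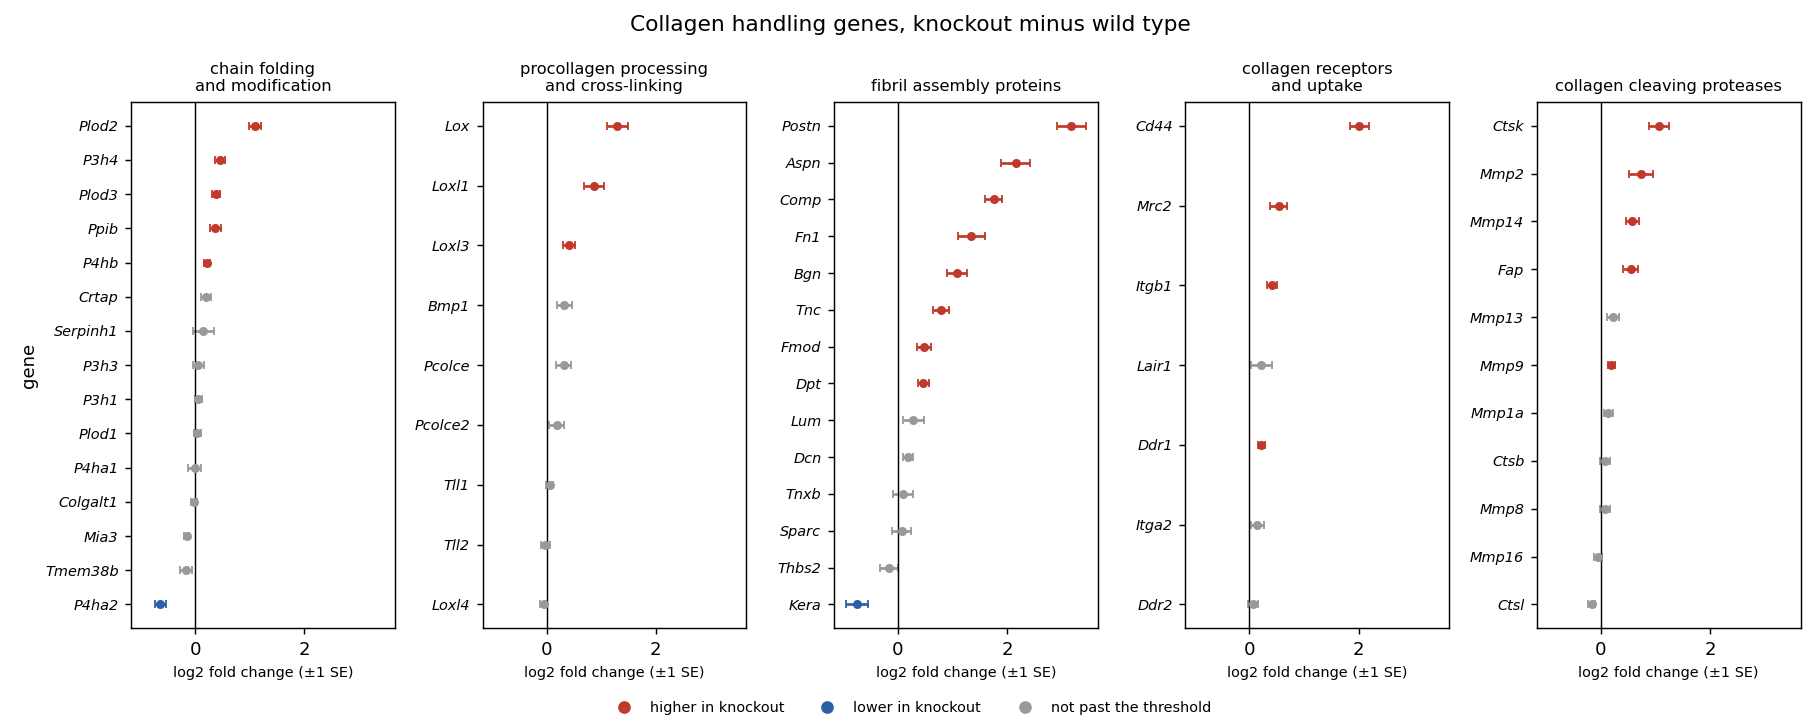
Log2 fold changes of the collagen handling genes, knockout minus wild type, with bars of 1 SE, in 5 lists (chain folding and modification, processing and cross-linking, fibril assembly, receptors and uptake, cleaving proteases). Most points that passed lie right of 0, with Postn farthest at 3.18, and P4ha2 and Kera are the 2 that fell.

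The soleus is a mixture of cells, and fewer cells of a type and less RNA per cell cannot be told apart in its bulk RNA. Markers of several cell types differed between the genotypes beside the collagens. The lowest intensity of an array was 11.3 to 12.9, so a value above 0 does not show that a marker was expressed. The marker counts are read beside the 17% of all genes that were higher and 16% that were lower, or 24.1% and 23.7% of those above the median level. Of 11 fibroblast markers, 6 were higher and 0 lower, with summed intensities of 33037 to 40751 in knockout and 27022 to 32672 in wild type, and the brightest, Gsn and Dcn, had log2 fold changes of 0.49 and 0.19, of which Dcn did not pass, except without knockout array 1 (adjusted p = 0.0253) or with quantile normalization (0.046). Of 7 tendon markers, 4 were higher and 1 lower, with sums of 7927 to 13152 in knockout and 5782 to 6086 in wild type. Thbs4 was at 1.19 and weighed most in the knockout sums. Fmod was at 0.47 and did not pass without wild type array 2 or 3 (adjusted p = 0.0957 and 0.0586). Tnmd (0.13) and Chodl (0.22) did not pass, and the 1 lower was Kera, at -0.75. Tnmd, Chodl and Kera were named here after their values were seen. All 10 macrophage markers were higher, with sums of 6843 to 10949 in knockout and 3158 to 3773 in wild type, Lyz2 and Csf1r at 1.34 and 1.05. The fibroblast and macrophage sums were highest in knockout array 3, as most fibrillar collagens were, and the tendon sum was highest in knockout array 2. The part of these markers in the rise of the fibrillar collagens was not tested.

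Endothelial markers moved the other way, beside Col4a1 and Col4a2, and smooth muscle and pericyte markers were mixed. All 10 endothelial markers were lower in knockout, with summed intensities of 3006 to 3432 in knockout and 5889 to 6286 in wild type, the highest knockout sum again in knockout array 3, and Egfl7 and Flt1 had log2 fold changes of -0.86 and -0.81. Of 8 smooth muscle and pericyte markers, 4 were lower, 1 was higher and 3 did not pass. Their sums were 9545 to 10306 in knockout and 14168 to 16672 in wild type. Rgs5, the brightest, weighed most in these sums and was at -0.91. Acta2, the next brightest, was at -0.01 and did not pass. The 1 that was higher was Cspg4, at 0.73 (adjusted p = 0.000936 by limma), named after its value was seen. Of 5 Schwann cell markers, 1 was lower (20%, near the share of all genes), Mbp at -1.73, and 0 were higher, while Pmp22 was at -0.04 and did not pass. The sums were 1556 to 1900 in knockout and 2000 to 2518 in wild type, but among the single markers only Mbp had groups that did not overlap. S100b (-0.34), Sox10 (0.08) and Mag (0.02), named after their values were seen, did not pass. Of the 10 muscle fibre markers, which hold slow isoforms and general muscle genes, 4 were higher and 2 lower (Ckm and Mb, both general muscle genes, named after their values were seen), with sums of 386584 to 396128 in knockout and 363959 to 385778 in wild type, and Acta1 (0.05) did not pass while Tnnt1 (0.21) did, though not without knockout array 2 (adjusted p = 0.0563) or wild type array 2 (0.084) or 3 (0.0545). Of 6 cartilage and bone markers 1 was higher, a share (16.7%) near that of all genes, Sox9 (0.75), which did not pass without wild type array 2 (adjusted p = 0.0685) or 3 (0.0688), and Sp7 (0.08) did not pass. The part of the endothelial and pericyte markers in the fall of Col4a1 and Col4a2 was not tested. The markers Dpt, Dcn, Lum, Fmod, Kera and Comp each stood in 2 of the lists.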

How the data were processed

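Per the submitters' processing notes the authors used RMA, whose version is not stated, and they deposited 1 linear intensity per probe set and array. Of 22690 probe sets, 64 were controls, 20380 had 1 symbol, 691 several and 1555 none, and only those with 1 symbol were named. Symbols were looked up in the RefSeq table by Entrez identifier, which was found for 12369 of 12393 genes, whether or not the symbol changed. No collagen symbol changed. Each of 4956 genes with several probe sets was represented by its brightest. Values were taken to log2(intensity + 1), since the files held linear values. Knockout and wild type were compared in R 4.3.3 by the two-sided test of limma 3.58.1 (lmFit, eBayes), with Benjamini-Hochberg adjustment over all genes, a threshold of 0.05 and no filter on dim genes. SE comes from that fit, SD is over the arrays of a genotype, and differences on the log2 scale subtract wild type from knockout.

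Groups came from the genotype labels. All collagen genes were named, with values per array for those past the threshold and for Col1a1, Col1a2, Col3a1, Col4a1, Col4a2, Col5a1, Col5a2, Col6a1, Col6a2, Col6a3, Col15a1 and Col18a1. Per handling list, as many as 3 members that were higher and 3 that were lower were named by smallest p, and per marker list the 2 with the highest mean. The members and lists were chosen with earlier results of these data known, and no list was tested. The fit was tested on simulated data. At most 1819 of 22690 probe sets were equal between any 2 arrays, so none was counted as a duplicate. Precision is limited by the number of arrays. No slide or scan date was used, and batches were therefore not tested. The alternatives were other pseudocounts, scalings, probe set rules, filters, weights, a replicate block, and each array left out.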

Additional observations from a re-analysis of the deposited data

Results flagged for a closer look

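In 10 of the 36 collagen genes, 1 of the 4 knockout arrays stood apart from the other 3 by Dixon's ratio, the gap to the nearest array divided by the range of the group. By the same ratio 1 knockout array stood apart in 12.7% of all genes. The ratio's nominal rate of about 1 in 20 holds only for values without ties: it was passed by 4.98% of all genes with no value repeated among the knockout arrays, and by 38.7% of those with one. Of the 23 collagens with no repeated value there 2 passed it, and of the 13 with one, 8 did. Knockout array 3 was highest in 5 of them, with ratios of 0.835 in Col1a1, 0.882 in Col2a1, 0.889 in Col5a3, 0.976 in Col16a1 and 1 in Col26a1. Knockout array 1 was highest in Col9a3 (0.879) and in Col22a1 (0.963). Knockout array 2 was highest in Col9a2 (1) and Col19a1 (0.978) and lowest in Col9a1 (1). Of these genes, Col1a1 and Col22a1 passed the limma test. Of the 36 collagens, 20 had a value repeated exactly in several arrays, against 42.2% of all genes at any level. Of these 20, 17 lay at or below the median level. A ratio of 1 means that the other 3 arrays held equal values. Without knockout array 3, Col5a3 had a log2 fold change of -0.01, against 0.12 with all arrays.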

How the results depend on the processing

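Of the 15 collagens that passed, 8 (Col5a2, Col3a1, Col1a1, Col4a5, Col4a1, Col8a1, Col14a1 and Col7a1) passed under each of the 17 alternatives in which they were tested, 7 lost the call at least once, and all 15 kept their sign. Of the other genes that passed, 21 of the 29 named by rule (Ckm, Mb and Cspg4 not among them) passed throughout. With only genes above the median level, which removes dim collagens, 7 collagens were higher and 2 lower, with 0 fibrillar lower, 0 basement membrane higher, 2 other higher and 0 other lower. Among handling genes, chain folding then had 2 lower and fibril assembly 0 lower. Chain folding also had 2 lower with array quality weights, an intensity trend or a pseudocount of 16. Averaging a gene's probe sets gave 12 collagens higher, Col19a1 among them (0.21, adjusted p = 0.0345), and Gsn did not pass (adjusted p = 0.0669).

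With the replicate number as a block, 10 collagens were higher and 2 lower, with 0 fibrillar lower, 3 other higher, 0 other lower and 1 microfibril higher, Col6a3 (log2 fold change 0.62, adjusted p = 0.0192). The block takes nothing from knockout array 4, which has no partner. Deviations of same-numbered arrays correlated by 0.03, -0.13 and 0.02, where arrays of unlike numbers had -0.15 to 0.14. These values give no sign that the numbers pair the arrays, but so few pairs cannot exclude it.

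Leaving out 1 array at a time gave 7 to 10 collagens higher and 1 to 3 lower, and 1592 to 2036 of all genes higher and 1579 to 1926 lower. Fibrillar chains had 3 to 5 higher (3 without wild type array 1 or 2) and 0 to 1 lower, basement membrane chains 1 higher and 1 to 2 lower (1 without wild type array 2 or 3), and other chains 3 to 4 higher (3 without knockout array 2 or wild type array 2 or 3) and 0 to 1 lower. Chain folding had 3 to 6 higher (3 without wild type array 2 or 3), cross-linking 2 to 5 (5 without knockout array 1), fibril assembly 7 to 9 higher and 0 to 1 lower, receptors 2 to 4 (2 without wild type array 2), and proteases 2 to 5 (3 without knockout array 2 or 3, 2 without wild type array 1 or 2). The causes of these moves were not tested, the fewer arrays or genes in a fit included. Moving Col15a1 and Col18a1 to the other class left the counts of higher and lower chains as they were, while the median log2 fold change of the basement membrane class was then 0.03, with 6 chains, against -0.04 with 8. With 4 and 3 arrays the precision is limited, and a collagen that did not pass is not shown to be the same in both genotypes.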
